A study of Homo sapiens with 12 samples.

Results

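The genes described here are 10 keratins that are used to tell luminal from basal epithelial cells: KRT8, KRT18 and KRT19 of luminal type, KRT5 and KRT15 of basal type, KRT6A and KRT17 of basal or stressed cells, KRT7 of other simple epithelia, the epithelial keratin KRT80 and the hair keratin KRT81. They were chosen by symbol from a table of 18950 genes, and all 10 were found. Their transcripts were measured by RNA sequencing in 12 libraries of 2 established human cell lines of prostate cancer, DU145 and PC3, both grown in DMEM with serum. Each line had been sorted on the brightness of green fluorescent protein (GFP), and the labels call the brightest 10% (GFP high) cells in which Wnt/β-catenin signaling is active and the dimmest 10% (GFP low) cells in which it is inactive. The 4 groups, GFP high and GFP low of each line, had 3 libraries each. No label names a further treatment or genotype, and nothing was found on the construct that carries GFP or on the number of clones (not given in the sources used here). Nor do the labels say that replicates were independent cultures or sorts, so the p-values reflect spread between libraries that may be technical.

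Keratins are the intermediate filament proteins of epithelial cells. A filament is built from pairs of a type I and a type II keratin. KRT8 (type II) and KRT18 (type I) form the pair of simple epithelia and of the luminal cells of the prostate, whereas KRT5 and KRT15 belong to the basal layer. KRT17 and KRT6A appear in basal cells and in epithelium under stress. In cells, a keratin protein that lacks a partner is unstable, and desmosomes and plakins anchor the filaments.

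Levels are given in CPM, the usual unit of counts relative to sequencing depth, here a scaled library total, taken from the deposited log2 values, as mean ± SD of 3 libraries. The libraries held 13453614 to 21528810 estimated counts, at which a count of 0 allows 0.13 to 0.233 CPM, a limit that covers counting error only. A gene entered the test if it reached 1 CPM in at least 3 of the 12 libraries, which 12527 genes and 6 of the 10 keratins did (KRT7, KRT8, KRT15, KRT17, KRT18 and KRT80). KRT15 passed in 3 libraries, all of DU145, and KRT17 in 5, all of PC3. Among the sorted populations, LEF1, a target and partner of β-catenin, was higher in GFP high cells of DU145 (log2 difference 1.87 ± 0.36 SE, limma adjusted p = 0.00508) and of PC3 (1.67 ± 0.36, limma adjusted p = 0.0106). The β-catenin gene itself, CTNNB1, was checked with it and did not pass in DU145 (0.02 ± 0.07, limma adjusted p = 0.867) or PC3 (0.16 ± 0.07, 0.23). AXIN2, a further Wnt gene that was checked, did not reach the minimum. Epithelial identity was checked on markers other than keratins. EPCAM had 5 counts in all DU145 libraries and 4 in all PC3 libraries, and E-cadherin (CDH1) had 29 and 5. KLK3 had 1 and 1, and the basal factor gene TP63 had 2 and 38, so none of these defining markers reached 1 CPM in any library. DU145 and PC3 are generally known as epithelial lines that express EPCAM, so these values go against the labelled cell type. Whether they reflect the identity of the lines or the completeness of the table was not tested, and the comparisons of lines below are between libraries labelled DU145 and PC3. Vimentin (VIM), the filament protein of mesenchymal cells, stood at 1120 to 1900 CPM. The variance between replicates was 5.38 to 35.6 times that of sampling alone. In DU145 GFP high, replicate 3 stood apart from replicates 1 (21.5 times) and 2 (17.8 times), and in PC3 GFP low, replicate 2 stood apart from replicates 1 (19.2) and 3 (35.6). PC3 GFP low replicates 2 and 3 had fewer genes at 0 (3495 and 3491) than replicate 1 (4819) or PC3 GFP high (4577 to 4771). The part of this difference in low counts seen in PC3 GFP low alone was not tested.

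KRT8 was high in DU145 and low in PC3. It was at 1750 ± 190 CPM in DU145 GFP high and 2750 ± 170 CPM in DU145 GFP low, against 18.1 ± 2.1 and 26.1 ± 2.4 CPM in PC3. By library, DU145 GFP high gave 1640, 1640 and 1980 CPM, DU145 GFP low gave 2900, 2570 and 2800, PC3 GFP high gave 16.2, 20.4 and 17.8, and PC3 GFP low gave 26.5, 28.3 and 23.5. The 4 groups followed each other in the order DU145 GFP low, DU145 GFP high, PC3 GFP low and PC3 GFP high with no overlap between neighbours. Averaged over both sorts, KRT8 was 101-fold higher in DU145 (log2 difference 6.66 ± 0.07, limma adjusted p = 5.92e-16), and it had the smallest p of all 12527 genes in this comparison, in which 77.5% of genes were called (38.3% higher and 39.2% lower in DU145). Across 12510 genes, differences between the lines rose with transcript GC content (Spearman rho 0.57), and no alternative removed that trend here. In bulk samples, fewer cells with a transcript and less of it per cell cannot be told apart.

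KRT18, the partner of KRT8, was high in both lines. It stood at 1240, 1280 and 1610 CPM in DU145 GFP high (1380 ± 210) and at 1990, 1850 and 2020 in DU145 GFP low (1960 ± 91). PC3 GFP high gave 357, 389 and 361 CPM (369 ± 18) and PC3 GFP low 403, 486 and 338 (409 ± 74). The DU145 groups lay above the PC3 groups and apart from each other, while the PC3 groups overlapped. The difference between the lines was 4.23-fold (log2 2.08 ± 0.09, limma adjusted p = 1.04e-10), far below that of KRT8.

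KRT80, a type II keratin found in many epithelia, was present at the same order of magnitude in all 4 groups. It stood at 81.3, 77.7 and 93 CPM in DU145 GFP high (84 ± 8) and at 70.5, 64.7 and 77.4 in DU145 GFP low (70.8 ± 6.4). In PC3 it stood at 69.7, 63.6 and 57.5 CPM in GFP high (63.6 ± 6.1) and at 89.7, 95.1 and 81.1 in GFP low (88.6 ± 7). From the top, the order was PC3 GFP low, DU145 GFP high, DU145 GFP low and PC3 GFP high. The upper pair overlapped, as did the lower pair. Between the lines, KRT80 differed by 0.04 ± 0.07 in log2 (95% interval -0.12 to 0.19, limma adjusted p = 0.638), so it was the keratin above the minimum that did not pass there.

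KRT7, a type II keratin of glandular and transitional epithelia, was low in both lines and higher in PC3. In DU145 it stood at 1.38, 2.38 and 3.3 CPM in GFP high and 1.12, 1.13 and 1.61 in GFP low, groups that overlapped. In PC3 the values were 5.73, 4.59 and 5.83 CPM in GFP high and 4.86, 5.05 and 3.67 in GFP low, which overlapped as well. Each PC3 library was above each DU145 library, and the log2 difference between the lines was -1.55 ± 0.22 (2.92-fold higher in PC3, limma adjusted p = 1.92e-05).

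Of the basal keratins, KRT17 was detected at a low level in PC3 and KRT15 in DU145. KRT17 had 1 count in the 6 DU145 libraries and 249 in the 6 PC3 libraries, a ratio of 196 per scaled total with an exact binomial 95% interval of 34.9 to 7780 that covers counting error only (limma adjusted p = 1.46e-08). In PC3 it stood at 1.36, 0.994 and 1.71 CPM in GFP high and at 3.17, 3.15 and 3.2 in GFP low. KRT15 went the other way between the lines, with 88 counts in DU145 (30 in GFP high and 58 in GFP low) and 30 in PC3 (15 in each sort), a log2 difference of 2.31 ± 0.67 (limma adjusted p = 0.00623). Its call was lost under quantile normalization (0.55 ± 0.66, limma adjusted p = 0.456). KRT15 and KRT17 entered the test through 1 line each, so the minimum favoured a difference between the lines, and these differences are given as a description. KRT15 counts per library ran from 6 to 27 in DU145 and from 0 to 11 in PC3, so a difference between the sorts was hardly measurable.

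The remaining 4 keratins did not reach the minimum. KRT5, the main type II keratin of basal cells, had 1 count in DU145 GFP low, 1 in PC3 GFP low and 0 in the GFP high groups. KRT6A had 1 count in DU145 GFP high and 2 in PC3 GFP low. KRT19, a type I keratin of luminal and simple epithelia, had 6 counts in DU145 GFP low (2, 0 and 4 by library) and 0 in the other 9 libraries. KRT81 had 1 count in DU145, 6.04 estimated counts in PC3 GFP high and 15.73 in PC3 GFP low, of which 14.48 came from replicate 2. With no minimum on expression, none of these 4 passed between the sorts in either line, and the differences between lines of KRT19 (limma adjusted p = 0.027) and KRT81 (0.0492) passed on this handful of counts. Thus 5 of the 6 keratins above the minimum differed between the lines, 3 higher (KRT8, KRT15 and KRT18) and 2 lower (KRT7 and KRT17) in DU145, against the 77.5% of all genes given above. Since the minimum itself favoured this for KRT15 and KRT17, nothing is read from the count.

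**Figure D1:**
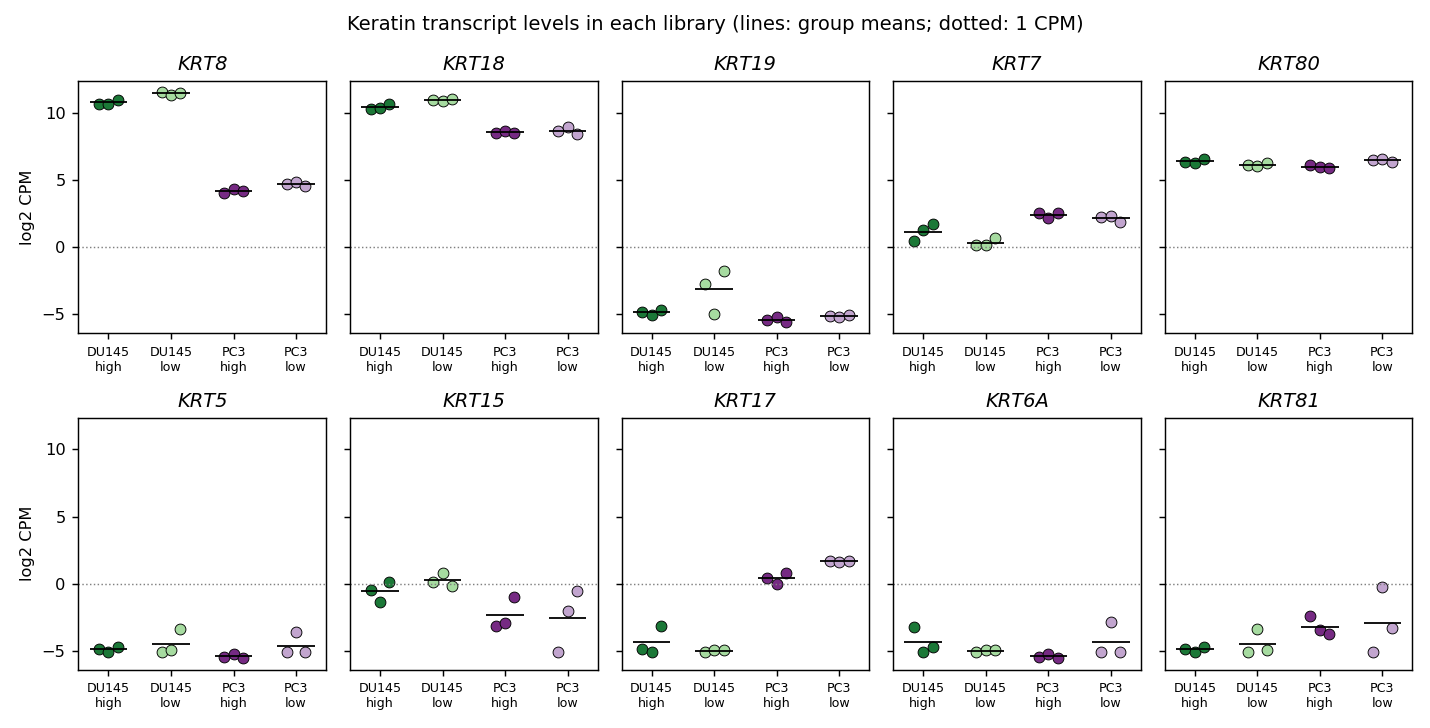
Level of each of the 10 keratins in the 12 libraries, in log2 CPM, with 1 point per library, a line at each group mean and a dotted line at 1 CPM. KRT8 sits above 10 in DU145 and below 5 in PC3, KRT18 is high in both lines, KRT80 lies at a similar height in all 4 groups, and KRT5, KRT6A and KRT19 lie near the value of a count of 0.

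Keratins of different length can be compared only per kilobase of transcript. On that scale, KRT8 and KRT18 were level in DU145, with 825 and 881 CPM per kb in GFP high and 1300 and 1250 in GFP low, and KRT80 was next at 21.8 and 18.4. In PC3 the order changed to KRT18 (236 and 262 CPM per kb in GFP high and low), KRT80 (16.5 and 23), KRT8 (8.53 and 12.3) and KRT7 (3.07 and 2.58). KRT18 thus exceeded KRT8 24.2-fold per kb in PC3, while KRT8 was at 0.986 of KRT18 in DU145.

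The sums over the 10 keratins by type show the same shift. In DU145, type I transcripts stood at 0.921 to 1.08 times the type II transcripts per kb in the 6 libraries, and KRT8 made up 97.3% of the type II sum in GFP high and 98.5% in GFP low. In PC3, type I transcripts were 6.38 to 8.71 times the type II transcripts. There KRT80 made up 58.5% of the type II sum in GFP high and 60.4% in GFP low, and KRT8 30.3% and 32.3%. KRT18 held at least 99.2% of the type I sum in all 4 groups. Outside the 10, the table lists 38 further keratin genes, of which 1, the type I keratin KRT10 of suprabasal epidermis, was above the minimum, with 340 and 346 counts in DU145 GFP high and low and 691 and 705 in PC3. A total of 27 of the 38 had at most 3 counts over all 12 libraries.

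Between the sorts of DU145, the luminal pair was lower in GFP high cells. KRT8 fell by 0.66 ± 0.10 on the log2 scale (0.635-fold, limma adjusted p = 0.00152) and KRT18 fell by 0.52 ± 0.12 (0.699-fold, limma adjusted p = 0.0121). For each, all 3 GFP high libraries lay below all 3 GFP low libraries, and GFP high replicate 3, the library that stood apart, was the nearest to GFP low. KRT80 had non-overlapping groups in the opposite direction by a narrow margin (77.7 against 77.4 CPM) and did not pass (0.25 ± 0.10, limma adjusted p = 0.0863). KRT7 did not pass either (0.80 ± 0.31, limma adjusted p = 0.0667), nor did KRT15 (-0.81 ± 0.95, 0.529) and KRT17 (0.65 ± 0.55, 0.377), which rest on few counts.

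In all, 2 of 6 keratins were called in DU145, both lower, where 27.1% of all genes were called, 13.1% higher and 13.9% lower (1647 and 1742 genes, or 1313 and 2305 with the libraries set to equal medians). The median over the 6 was -0.14, against -0.007 over all genes tested. Groups without overlap were seen for 3 of the 6 and for 40.5% of all genes. In this comparison, log2 differences followed the GC content of the transcripts across genes (Spearman rho -0.64 over 12510 genes, which are not independent replicates), and the 10 keratins, at 55.8% to 62.9% GC, lie among the GC-rich genes. With the trend in GC content and length removed, KRT8 stood at -0.35 ± 0.06 (limma adjusted p = 0.00135) and KRT18 at -0.20 ± 0.04 (0.00647), both still called at a smaller size, and the rises of KRT80 (0.51 ± 0.07, 0.000202) and KRT7 (1.14 ± 0.26, 0.00764) passed. Quantile normalization gave -0.43 for KRT8 and -0.28 for KRT18, and KRT80 passed under it (0.31 ± 0.10, limma adjusted p = 0.0448). The KRT18 call was lost without GFP high replicate 1 (adjusted p = 0.061), GFP high replicate 2 (0.0583) or GFP low replicate 3 (0.0551), and both calls were lost without GFP high replicates 1 and 2 together (-0.48, 0.144 for KRT8 and -0.28, 0.52 for KRT18), which leaves that group with 1 library whose spread is assumed to equal that of the others. KRT7 passed without GFP high replicate 1 (1.14, adjusted p = 0.0321).

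Between the sorts of PC3, KRT8 and KRT80 were lower in GFP high cells. KRT8 fell by 0.53 ± 0.10 on the log2 scale (0.694-fold, limma adjusted p = 0.0055), although its level was so much lower than in DU145. KRT80 fell by 0.48 ± 0.10 (0.717-fold, limma adjusted p = 0.00975). All 3 GFP high libraries lay below all 3 GFP low libraries for both genes. KRT18, the most abundant keratin of this line, differed by -0.13 ± 0.12 (95% interval -0.40 to 0.13, limma adjusted p = 0.593), and its groups overlapped. KRT7 (0.26 ± 0.31, limma adjusted p = 0.701) and KRT15 (0.21 ± 0.95, 0.934) did not pass.

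KRT17, the basal or stress keratin that PC3 expresses at a low level, had 86 counts in GFP high and 163 in GFP low, and its groups did not overlap. All 3 GFP low libraries reached 1 CPM, while GFP high replicate 2 did not (0.994 CPM). KRT17 thus met the minimum through GFP low, where it was higher, and its values between the sorts are given as a description. In the fit over all 12 libraries it did not pass (-1.26 ± 0.55, limma adjusted p = 0.185). In that fit its spread includes the DU145 libraries, which hold 1 count. It passed with PC3 fitted alone (-1.26 ± 0.26, 0.0285), with an offset of 8 counts (-1.09 ± 0.21, 0.00398), with voom on the estimated counts (-1.24 ± 0.27, 0.00864) and with libraries weighted by their quality (-1.24 ± 0.30, 0.00366). Estimation of the library weights stopped before reaching its tolerance, and the weighted fit called 5676 genes in PC3, against 1182 without weights. The choice of model thus decided this call.

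In PC3, 2 of 6 keratins were called, both lower, where 9.44% of all genes were called, 4.17% higher and 5.27% lower (522 and 660 genes, or 509 and 412 at equal medians). The median over the 6 was -0.31, against -0.022 over all genes. Groups without overlap were seen for 3 of the 6, among them KRT17, which met the minimum through GFP low, and for 30.4% of all genes. The trend with GC content was weaker here (Spearman rho -0.11), and with it removed KRT8 stood at -0.47 ± 0.06 and KRT80 at -0.49 ± 0.07, both called. PC3 GFP low replicates 2 and 3 were the PC3 libraries with the fewest genes at 0. Without them, which again leaves 1 library in the group, the calls of KRT8 (-0.55) and KRT80 (-0.50) were lost at the same size.

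**Figure D2:**
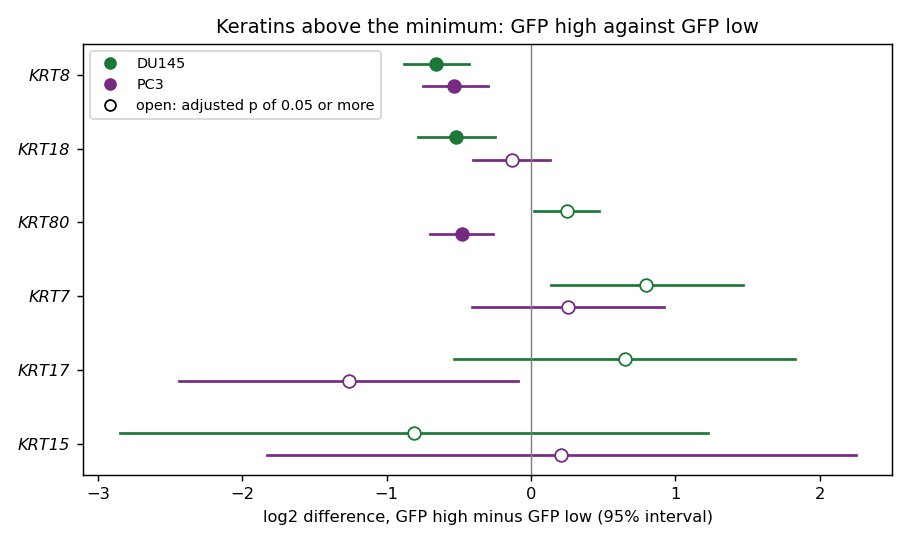
Log2 difference between GFP high and GFP low cells for the 6 keratins above the minimum, with the 95% interval of the limma fit, in DU145 (green) and PC3 (purple). Filled points passed an adjusted p of 0.05. The intervals of KRT8 in both lines, KRT18 in DU145 and KRT80 in PC3 lie left of 0. Among open points, those of KRT80 and KRT7 in DU145 lie right of 0 and that of KRT17 in PC3 left of 0.

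The test of the difference between the lines in the sort effect was passed by 1 of the 6 keratins, KRT80, where 15.9% of all genes passed (885 more positive in DU145 and 1105 more negative, or 626 and 1428 at equal medians). Its effect in DU145 exceeded that in PC3 by 0.73 ± 0.14 in log2 (95% interval 0.41 to 1.04, limma adjusted p = 0.00548), with a fall in PC3 and no call in DU145. Equal medians gave 0.59 and removal of the GC trend 1.0. For KRT8 the difference was -0.13 ± 0.15 (95% interval -0.44 to 0.18, limma adjusted p = 0.556). For KRT18 it was -0.39 ± 0.17 (95% interval -0.76 to -0.01, limma adjusted p = 0.138), so the fall seen in DU145 and not in PC3 is not shown to differ between the lines. That test passed for KRT18 without DU145 GFP high replicate 3 (-0.51, adjusted p = 0.0297) or PC3 GFP low replicate 2 (-0.52, 0.0231), the libraries that stood apart. KRT17 had a difference of 1.91 ± 0.77 (limma adjusted p = 0.104) and KRT7 of 0.55 ± 0.44 (0.397).

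The ratio of KRT8 to KRT18 within a library does not depend on how libraries are scaled. In DU145 its log2 value was 0.41, 0.36 and 0.29 in GFP high (0.35 ± 0.06) and 0.54, 0.47 and 0.47 in GFP low (0.49 ± 0.04), a difference of -0.14. In PC3 it was -4.46, -4.25 and -4.34 in GFP high (-4.35 ± 0.10) and -3.93, -4.10 and -3.85 in GFP low (-3.96 ± 0.13), a difference of -0.39. The sorts did not overlap in either line, so KRT8 was lower relative to its partner in each GFP high library than in each GFP low library. The two-sided exact permutation test gave p = 0.1 in each line, the smallest value that 3 against 3 libraries allow, so this comparison cannot pass 0.05.

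**Figure D3:**
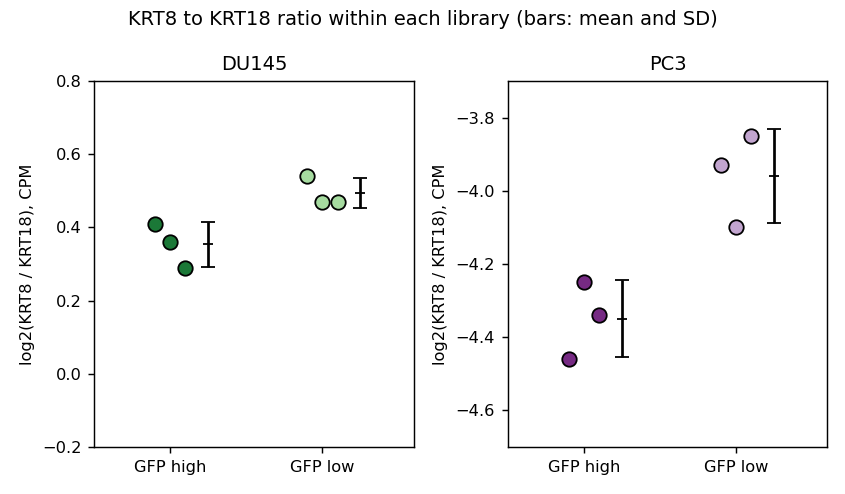
Log2 ratio of KRT8 to KRT18 (in CPM) in each library of DU145 (left) and PC3 (right), with the group mean and SD as bars; the vertical axes differ. GFP high libraries lie below GFP low libraries in both lines, at 0.29 to 0.41 against 0.47 to 0.54 in DU145 and at -4.46 to -4.25 against -4.10 to -3.85 in PC3.

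Across the 12 libraries, with the mean of each line removed, KRT8 and KRT18 varied together (Pearson r = 0.86), as did KRT17 and KRT80 (0.77), although KRT17 carries information in PC3 alone. Over both lines together, KRT80 had low correlations with the luminal pair (0.25 with KRT8 and 0.05 with KRT18), and KRT7 ran against KRT8 (-0.49). The pooled value mixes the lines, since KRT80 and KRT8 were both lower in PC3 GFP high (-0.48 and -0.53 in log2). In DU145 GFP high, KRT8 was lower (-0.66) and KRT80 was higher (0.25, not called). The correlations are descriptions over 12 libraries that share their sorts, depth and trend in GC content. The search for genes that varied most like each abundant keratin covered 7508 genes whose log2 CPM averaged 4 or more. Closest to KRT8 were WARS, a tryptophan tRNA synthetase gene (r = 0.991), PCDHGC3, a protocadherin gene (0.989), and PDLIM1, a gene of the actin cytoskeleton (0.977). The most similar to KRT18 were BAK1, an apoptosis effector gene (0.992), MAD2L2 (0.99) and the translation initiation factor gene EIF3G (0.988). For KRT80 they were the integrin gene ITGA3 (0.969), GNPTG (0.956) and CLIP2 (0.928).

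Genes that anchor keratin filaments moved in both directions. For 15 genes of desmosomal plaque proteins, plakins and linkers, all above the minimum, the median was -0.01 in each line, with 1 higher and 2 lower in DU145, where 27.1% of all genes were called, and likewise in PC3, where 9.44% were. Changes in lists are given from GFP low to GFP high. JUP, which encodes plakoglobin of the desmosomal plaque, fell in DU145 from 155 ± 14 to 101 ± 11 CPM (-0.62 ± 0.14, limma adjusted p = 0.01), and so did PLEC, the plectin gene (-0.26, 0.026, alternatives not run). PPL, which encodes periplakin, fell in PC3 from 43.1 ± 4.6 to 16.2 ± 0.59 CPM (-1.41 ± 0.16, limma adjusted p = 7.73e-05), and PKP2, a plakophilin gene, rose there from 6.23 ± 1.6 to 11.1 ± 0.96 CPM (0.87 ± 0.21, 0.02). EVPL, which encodes envoplakin, had 16 counts in DU145 GFP low and 85 in DU145 GFP high (2.44 ± 0.57, 0.0117). DU145 GFP high was the group through which alone EVPL met the minimum, which favoured a difference there, so it is given as a description. In PC3, EVPL had 7 counts in GFP low and 0 in GFP high (limma adjusted p = 0.0106, and 0.105 with an offset of 8 counts). With GFP high set at 3 counts it was 2.85-fold lower, a value that leaves out counting error in GFP low. The JUP call was lost without DU145 GFP low replicate 3 and with the GC trend removed, that of EVPL in DU145 without GFP high replicate 1 or 2, and that of PKP2 without any 1 of PC3 GFP high replicates 1 and 3 and GFP low replicates 1 and 2. Between the lines, 8 of the 15 were higher and 6 lower in DU145, beside 38.3% and 39.2% of all genes. DSP, the desmoplakin gene that ties keratin to desmosomes and was picked after its values were seen, went from 168 and 169 CPM in DU145 GFP high and low to 0.396 and 0.658 in PC3. DSP met the minimum through DU145, which favoured a difference in this direction, so it is given as a description.

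Among other intermediate filament genes, 6 of 15 were above the minimum. Of these, 2 fell in DU145, where 27.1% of all genes were called, and none was called in PC3, where 9.44% were. VIM fell in DU145 from 1500 ± 53 to 1190 ± 63 CPM (-0.33 ± 0.08, limma adjusted p = 0.0171), and it stood at 1450 ± 15 and 1720 ± 200 CPM in PC3 GFP high and low (-0.24 ± 0.08, 0.0945; 0.0135 without PC3 GFP low replicate 3). The lamin gene LMNB2 fell in DU145 (-0.24 ± 0.07, limma adjusted p = 0.0217), but with the GC trend removed its sign turned (0.07), and with quantile normalization it was -0.05 (0.447). VIM in DU145 was -0.10 with the GC trend removed (0.209) and -0.07 with quantile normalization (0.226), neither called, while in PC3 it passed under both (-0.24, 0.00356, and -0.19, 0.0137). The line in which VIM was called thus turned on the processing. Both DU145 calls were lost without any 1 of GFP high replicates 1 and 2 and GFP low replicates 1 and 3.

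Markers of luminal and basal cells outside the keratins moved in both directions, and their counts stand beside 27.1% of all genes called in DU145 and 9.44% in PC3. Of 12 luminal markers outside the keratins, 5 were above the minimum. In DU145, 1 of them rose and 1 fell (median 0.37), and in PC3 1 fell and none rose (median 0.19). The tetraspanin gene CD9 fell in both lines, from 207 ± 2.8 to 141 ± 8.6 CPM in DU145 (-0.56 ± 0.08, limma adjusted p = 0.00117) and from 40.7 ± 3 to 25.3 ± 2 CPM in PC3 (-0.69 ± 0.08, 0.000153). Its pattern over the 4 groups thus had the same order as that of KRT8. FOXA1, a pioneer factor of luminal cells, rose in DU145 from 11 to 46 counts (2.17 ± 0.47, 0.00856) and did not pass in PC3 (0.19 ± 0.47, 0.871).

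Of 12 basal markers outside the keratins, 10 were above the minimum, and in each line 1 rose and 2 fell (medians -0.10 in DU145 and -0.06 in PC3). LAMB3, a chain of the basement membrane protein laminin, fell in DU145 from 13 ± 1.5 to 2.37 ± 0.54 CPM (-2.47 ± 0.18, limma adjusted p = 4.26e-06) and was higher in PC3 GFP high (31.2 ± 1.5 against 20.3 ± 2.6 CPM, 0.63 ± 0.18, 0.0423), a call lost without any 1 of PC3 GFP high replicates 1, 2 and 3, GFP low replicates 1 and 3 and DU145 GFP low replicates 1 and 3 and with equal medians (0.0518) or quantile normalization (0.0648). S100A2, a calcium-binding protein gene of basal cells, fell in PC3 from 33.5 ± 4.8 to 11.3 ± 2.8 CPM (-1.59 ± 0.19, 0.000116). ITGB4, the integrin subunit of hemidesmosomes, fell in PC3 from 103 to 55 counts (-1.15 ± 0.27, 0.0174), a call lost without PC3 GFP high replicate 1 or 3 or GFP low replicate 2, with voom (0.109) and with PC3 fitted alone (0.0839). SFN, which encodes stratifin, fell in DU145 from 183 ± 18 to 125 ± 13 CPM (-0.56 ± 0.13, 0.0111), a call lost without GFP high replicate 1 or 2 or GFP low replicate 3 and with quantile normalization (-0.40, 0.0589). ITGA6 was the basal marker that rose in DU145 (0.34, limma adjusted p = 0.039), and its alternatives were not run.

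Among transcription factors known to act on epithelial genes, the 8 epithelial factors above the minimum had 1 rise and 1 fall in DU145, where 27.1% of all genes were called, and no call in PC3, where 9.44% were. KLF4 rose in DU145 from 0.651 ± 0.21 to 2.52 ± 0.66 CPM (1.96 ± 0.27, limma adjusted p = 0.000729). TFAP2C fell there (-0.35 ± 0.11, 0.0339), a call lost without any 1 of GFP high replicates 1 and 2 and GFP low replicates 1 and 3 and with the GC trend removed. GRHL2, a factor of simple epithelia, had 1 count in all libraries. The 4 factors of the epithelial to mesenchymal transition above the minimum had 2 rises and 1 fall in DU145 and 1 fall in PC3. SNAI1, a repressor of epithelial genes, fell in PC3 from 4.12 ± 1.1 to 1.88 ± 0.26 CPM (-1.11 ± 0.21, 0.00394) and in DU145 from 19.9 ± 1.8 to 13.2 ± 1.8 CPM (-0.60 ± 0.21, 0.046). With the GC trend removed, SNAI1 in DU145 was -0.31 (0.199) and not called. Its DU145 call was also lost without any 1 of 7 libraries, namely PC3 GFP high replicates 1 and 2 and all DU145 libraries other than GFP high replicate 3. ZEB1 and ZEB2 rose in DU145 (0.98 ± 0.27, 0.0221, and 1.30 ± 0.28, 0.00873), with the ZEB1 call lost without GFP high replicate 1 or 2 or GFP low replicate 3. With voom both calls were lost (0.0521 for ZEB1 and 0.0776 for ZEB2), and with DU145 fitted alone that of ZEB2 was lost (0.0681). In PC3, ZEB1 passed with the GC trend removed (-0.64, 0.0235). Between the lines, ZEB2 stood at 0.873 and 0.368 CPM in DU145 GFP high and low and at 32 and 27.1 CPM in PC3.

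Genes of keratinocyte differentiation were close to absent, with 2 of 14 above the minimum and 9 at no more than 3 counts in all. FLG, which encodes filaggrin, had 22 counts in PC3 GFP low and 0 in PC3 GFP high (limma adjusted p = 0.0382). With GFP high set at 3 counts it was 8.97-fold lower, a value that leaves out counting error and spread in GFP low. Its log2 difference was -3.29, and -0.29 without PC3 GFP low replicates 2 and 3. The FLG call in PC3 was kept under 10 of 27 alternatives. It was lost without any 1 of DU145 GFP high replicate 2, DU145 GFP low replicates 1, 2 and 3, PC3 GFP high replicates 1, 2 and 3 and PC3 GFP low replicates 2 and 3. Of the other cell types that were looked for, endothelial markers had 0 of 4 genes above the minimum, and fibroblast markers had 1 of 6, COL1A1, with a list sum of 0.603 to 1.95 CPM over the 12 libraries. Leukocyte markers had 1 of 4, CD68, which fell in DU145 (-0.59 ± 0.19, limma adjusted p = 0.0349), while PTPRC had 3 counts in all libraries. Neuroendocrine markers had 1 of 6, SYP, which fell in DU145 (-0.37 ± 0.10, 0.0226), while CHGA had 5 counts. With the GC trend removed, SYP in DU145 was -0.07 (0.68) and CD68 -0.34 (0.231), neither called. The DU145 calls of CD68 and SYP were also lost without any 1 of GFP high replicates 1 and 2 and GFP low replicates 1, 2 and 3. The summed level of the leukocyte list was 24.8 to 31.1 CPM in DU145 GFP high and 38.5 to 42.8 in GFP low, and that of the neuroendocrine list 29.1 to 35.4 and 38.8 to 43, so both were lower in the sort in which KRT8 and KRT18 were lower. Nearly all of each sum was 1 gene, with CD68 at 26.8 and 40.1 CPM and SYP at 30.2 and 38.9 CPM in DU145 GFP high and low. The sums thus describe these genes rather than a cell type, and their part in the result was not tested. In PC3, CD68 passed without GFP low replicate 1 (0.64, 0.0415) and TFAP2C without GFP high replicate 3 (0.47, 0.00948).

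Sequence shared between genes limits how well single keratins can be counted. In GENCODE 29 transcripts, 32.7% of the 50-base windows of KRT8 occur also in transcripts of 37 other genes, most often the pseudogene KRT8P3 (19.0%), and 31.8% of those of KRT18 occur in 43 other genes, most often KRT18P11 (10.0%). For KRT81 the share was 44.6%, with KRT86 at 38.4%, for KRT6A 39.1% and for KRT17 16%, whereas KRT80 (0.4%), KRT7 (1.0%), KRT15 (0.3%), KRT19 (1.8%) and KRT5 (4.0%) were nearly unique. Estimated counts that were not whole, as arise when reads are divided between genes, were seen for KRT8 in 8 of 12 libraries, for KRT81 in 5, for KRT7 in 4, for KRT18 in 3 and for no other member. The values of KRT81 and KRT6A are therefore uncertain, and those of KRT8 and KRT18 depend on how reads were assigned. KRT8 (ENSG00000170421, chromosome 12, 52897187 to 52949954, minus strand) and KRT18 (ENSG00000111057, chromosome 12, 52948871 to 52952901, plus strand) also overlap at their 5′ ends in the GRCh38 annotation. No source used here says whether reads were counted by strand. KRT80 (ENSG00000167767) lies in the same type II cluster, at 52168996 to 52192000 on chromosome 12, minus strand, whereas KRT17 (ENSG00000128422, 41619441 to 41624842, minus strand) and KRT15 (ENSG00000171346, 41513743 to 41522529, minus strand) lie in the type I cluster on chromosome 17.

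Because the cells were sorted as Wnt active and inactive, and KRT8 was lower in GFP high cells of both lines, the promoter of KRT8 was searched for the core letters that TCF and LEF factors bind. RefSeq promoters (GRCh38.p14) were matched for 2 of the 10 keratins, KRT5 and KRT8. The 250 bases before the RefSeq start of KRT8, chr12:52926470-52926719, minus strand, are printed from 5′ to 3′ on the strand of the gene, with the match in capitals.
KRT8: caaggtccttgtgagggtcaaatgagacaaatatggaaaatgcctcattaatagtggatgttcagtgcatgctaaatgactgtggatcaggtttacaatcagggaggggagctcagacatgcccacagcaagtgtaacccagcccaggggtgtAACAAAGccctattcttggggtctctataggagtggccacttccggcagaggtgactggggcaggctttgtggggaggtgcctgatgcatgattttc
The letters CTTTGTT and CTTTGAT were searched on both strands, and CTTTGTT was found once, on the opposite strand as AACAAAG, 97 to 91 bases before the start. Of 35116 promoters of this length, 4.5% hold CTTTGTT, 2.3% hold CTTTGAT and 6.6% hold either. No match to either was found in KRT5. This RefSeq start is 1 of 17 that GENCODE 29 gives KRT8, and the nearest start of a principal transcript lies 19851 bases away. The counts per gene do not say which start was used, so the match is a description of these letters only.

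Over 28 alternative ways of processing the data, the direction of the called keratins did not turn. Not all of them could move a difference within 1 line. Leaving out libraries of the other line, or a stricter threshold, left its size unchanged and could alter the call only. KRT8 in DU145 ranged from -0.77 to -0.35 and kept its call under 27 of 28, and in PC3 it ranged from -0.61 to -0.45 and kept its call under 27. KRT18 in DU145 ranged from -0.64 to -0.20 and kept its call under 23. KRT80 in PC3 ranged from -0.55 to -0.41 and kept its call under 27, and its difference between the lines ranged from 0.59 to 1.0 and passed under all 27 that could be fitted. KRT7 in DU145 stayed between 0.51 and 1.38 and passed under 5 of 27. KRT80 in DU145 stayed between 0.14 and 0.51 and passed under 4 of 28.

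**Figure D4:**
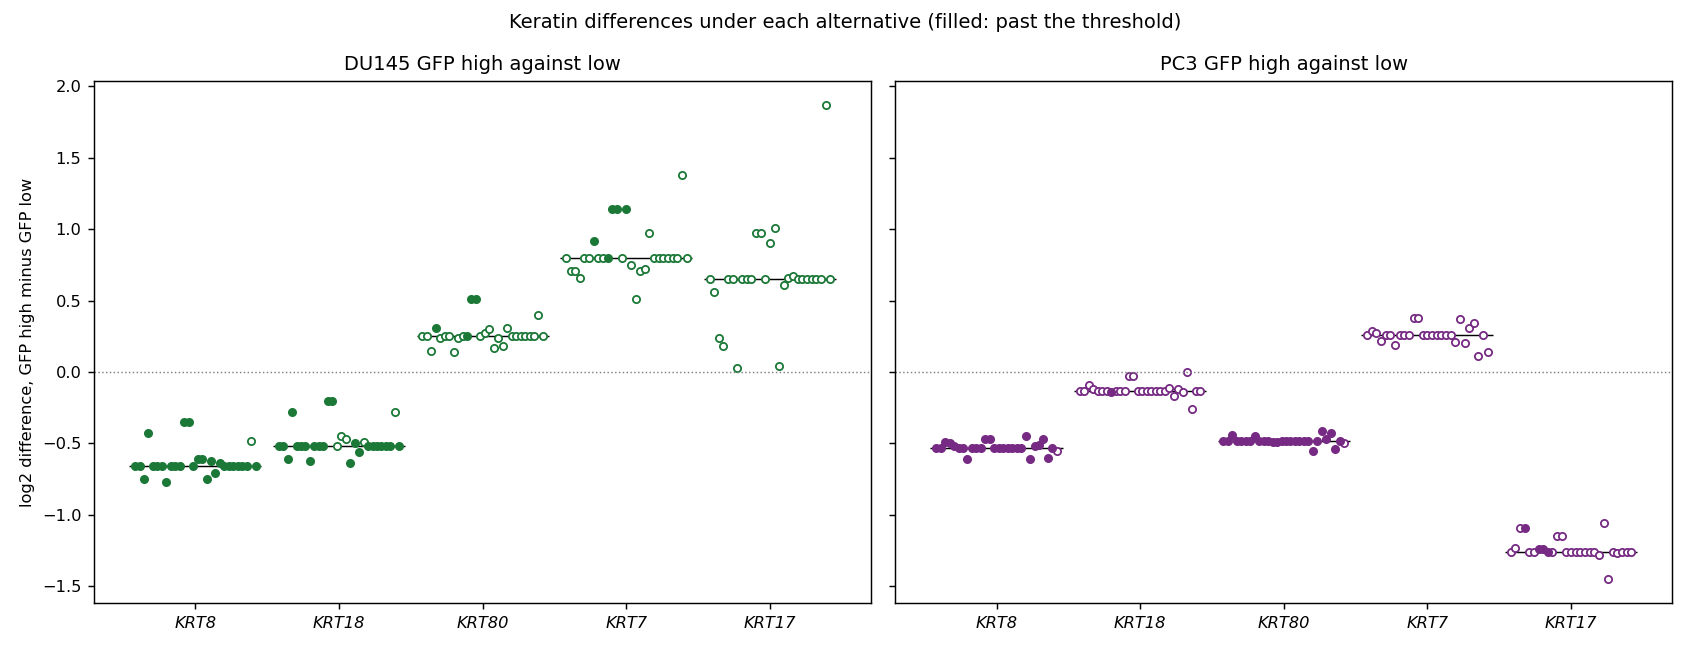
Log2 difference between GFP high and GFP low cells for 5 keratins under each alternative (1 point each, filled where the adjusted p passed the threshold), with a line at the value of the fit described above. Points of KRT8 lie between -0.77 and -0.35 in DU145 and between -0.61 and -0.45 in PC3, and those of KRT80 are above 0 in DU145 and below 0 in PC3.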

How the data were processed

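RNA sequencing values of 12 libraries were taken from 1 table that the authors deposited and that is named as log2 normalized counts, per the labels. From the values, the scale was taken to be log2 CPM with 0.5 added to each estimated count. Reversing the transform returned whole numbers, to within 0.01, for 87.0% of counts in the median library. STAR and DESeq2 are named in the submitters' processing notes, without versions; genome build, annotation and counting method: not given in the sources used here. Groups follow the sample titles, and all 12 sample columns were used.

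The deposited log2 values were fitted in R 4.3.3 with limma 3.58.1 with a trend in the variance prior, 4 group means, 12 libraries, 8 residual degrees of freedom and Benjamini-Hochberg adjustment over all 12527 genes of each comparison at 0.05. The minimum for a gene was 1 CPM in 3 or more libraries. Adjusted p-values and folds come from this fit, and for keratins below the minimum from the same fit with no minimum. The KRT8 to KRT18 ratio was tested with an exact permutation test. The fit was tested on simulated data. Means in CPM include the offset of 0.5 counts. Positions, GC content and transcript length (APPRIS principal transcripts) were looked up by Ensembl identifier in GENCODE 29 (GRCh38), which held 18901 of the 18950 genes, and promoters from RefSeq (GRCh38.p14).

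The 10 members and the gene lists were chosen with earlier results of these data known. Named genes are all members, up to 4 genes per list that passed in a sort comparison with the smallest p, and the 3 genes most like each abundant member. ITGA6, PLEC and others given as examples of a count or of a level, such as DSP, KRT10, GRHL2, PTPRC, CHGA and COL1A1, lie outside that rule and were picked after their values were seen. The trend in GC content and length was removed by loess (span 0.4) of each library against the mean of its line. The 28 alternatives also covered other minimums, an offset of 8 counts, voom, arrayWeights, robust or untrended variance priors, equal medians, quantile normalization, lines fitted alone, a replicate block, a threshold of 0.01 and libraries left out.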

Additional observations from a re-analysis of the deposited data

Results flagged for a closer look

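KRT80 changed differently between the sorts of the 2 lines: the log2 difference between GFP high and GFP low was greater by 0.73 ± 0.14 in DU145 than in PC3 (limma adjusted p = 0.00548 for the difference itself). It was -0.48 in PC3, lower in 3 of 3 GFP high libraries than in any GFP low library. In DU145 it was 0.25 and did not pass, though it passed there under 4 of 28 alternatives.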

How the results depend on the processing

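The count of 2 keratins called in DU145 became 4 with the replicate number as a block (KRT7 and KRT80 added), 4 with the GC and length trend removed and 4 with both, 1 at an adjusted p under 0.01 and 0 without DU145 GFP high replicates 1 and 2. Leaving out 1 library at a time gave 1 to 2. The 2 called in PC3 became 5 with arrayWeights, whose estimation stopped before reaching its tolerance, and 0 without PC3 GFP low replicates 2 and 3. The 1 keratin that differed between the lines in its sort effect became 2 with an offset of 8 counts, 2 with the replicate block (KRT18 added), 2 without DU145 GFP high replicates 1 and 2, 5 with arrayWeights and 1 to 2 without single libraries. The 5 that differed between the lines became 2 at a minimum of 16 CPM, where 3 keratins were tested. LMNB2 in DU145 turned to 0.07 with the GC trend removed, with and without the block. The KRT8 to KRT18 difference ranged from -0.16 to -0.11 in DU145 and from -0.47 to -0.34 in PC3 without single libraries.

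Same-numbered libraries of the sorts deviated together with correlations of -0.02, 0.091 and 0.213 in DU145 and 0.059, 0.196 and 0.145 in PC3, not all above 0.1, so the numbers were not taken as pairs. Each PC3 library correlated best with its own number, which was not so in DU145. Over all genes, the 3389 calls in DU145 became 2252 with quantile normalization, 8122 with arrayWeights, 784 at 0.01, 896, 1066 and 5597 without GFP high replicates 1, 2 and 3 in turn, 1323 and 966 without GFP low replicates 1 and 3, and 170 without GFP high replicates 1 and 2. The 1182 in PC3 became 5676 with arrayWeights, 2485 and 2764 with the GC trend removed without and with the block, 526 at 0.01, 660 and 709 without GFP high replicates 1 and 2 in turn, and 410 without GFP low replicates 2 and 3. The 1990 for the difference became 7936 with arrayWeights, 3321 with the block, 3355 with block and GC trend removed, 708 at 0.01, 3661 without DU145 GFP high replicate 3, 3351 without PC3 GFP low replicate 2, 1145 to 1287 without any 1 of 8 other libraries (all but DU145 GFP low replicate 2 and PC3 GFP high replicate 3), 649 without both DU145 libraries and 1188 without both PC3 libraries. Equal medians shifted the median of all genes by -0.131 for the difference and 0.145 between the lines. The cause of these changes was not tested. The line comparison has no fit with each line alone or with a block. Depth limits KRT5, KRT6A, KRT15, KRT17 in DU145, KRT19 and KRT81, at 0 to 27 counts a library.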
